A study of Mus musculus with 18 samples.

Results

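Long intergenic non-coding RNA (lincRNA) regions of more than 20 kb were studied in nuclei and cytoplasm of mouse muscle fibers. They were taken from the names that an Agilent array gives its lincRNA probes, each a chromosome interval of the mm9 genome with a strand, F for forward and R for reverse. A region was kept when its end minus its start was over 20000 bases, when it lay on chromosomes 1 to 19 and when its start was 6000000 or more, and 4 named regions were left out. This gave 1343 of the 4622 lincRNA regions on the array, with 5571 of its 16251 lincRNA probes and of its 55681 probes in all. The probes are 60 bases long.

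The 18 arrays held 3 samples for each of 6 groups, the cytoplasm or nuclei of fibers from the extensor digitorum longus (EDL), the soleus or the tibialis anterior (TA). All came from CD1 female mice, age 3 months, with no treatment other than the dissociation of the muscles in type I collagenase. EDL and TA are mostly fast muscle, while soleus holds both slow and fast fibers. Each sample was a pool of 5 to 10 hand-picked myofibers, lysed with a mild detergent and spun, so that the pellet gave the nuclei and the supernatant the cytoplasm. For EDL and soleus the labels give the same mice to the same replicate number, while TA cytoplasm 1 and 2 share mouse 5, so that p-values measure the spread between these pools and not always between animals.

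LincRNAs are transcripts from between protein-coding genes that are not translated into long proteins. Many are spliced and polyadenylated like mRNAs, some stay at the chromatin they were made from, and others are exported. Long intervals of this kind often hold host genes of microRNAs and antisense or imprinted transcripts, and an interval drawn from chromatin marks or read coverage can hold more than 1 transcript.

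The regions were 20001 to 7128486 bases long, with a median of 39165, and 167 were over 100 kb. The forward strand held 657 and the reverse strand 686, and overlapping regions, mostly the same interval named on both strands, made up 711 loci, of which 241 were a single region. A region had a median of 4 probes, 190 regions had 1 and 78 had 10. Of the 5571 probes, 2451 were well above background on all 18 arrays and 775 on none. A probe was tested when at least 2 of the 3 arrays of every group gave a value, which held for 4082 probes in 1263 regions.

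The probes that carry the differences between fractions and between muscles are printed first, from 5′ to 3′ on the strand of the probe, with their positions in mm9 as the array gives them. The first 2 were higher in nuclei, the next 3 higher in cytoplasm, and the last 2 differed between muscles. Capitals mark the longest stretch, where it has 30 or more bases, that is also in a probe of another name, on either strand.
A_30_P01033525, chr6:31115516-31115575, R: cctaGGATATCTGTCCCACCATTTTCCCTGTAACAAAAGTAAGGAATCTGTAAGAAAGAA
A_30_P01023865, chr6:31150158-31150217, F: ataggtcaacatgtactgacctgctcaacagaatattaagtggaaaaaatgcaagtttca
A_30_P01018533, chr5:15168505-15168564, F: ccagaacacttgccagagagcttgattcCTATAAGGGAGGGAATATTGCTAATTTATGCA
A_30_P01021374, chr6:47694236-47694295, F: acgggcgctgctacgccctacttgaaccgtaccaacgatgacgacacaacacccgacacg
A_30_P01020068, chr5:14937825-14937884, F: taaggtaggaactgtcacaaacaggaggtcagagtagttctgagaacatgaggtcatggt
A_30_P01027245, chr6:121058456-121058515, R: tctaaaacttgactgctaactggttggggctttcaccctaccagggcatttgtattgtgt
A_30_P01029316, chr14:101906373-101906432, F: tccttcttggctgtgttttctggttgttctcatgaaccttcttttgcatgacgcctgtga

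Pairs of probes show how far a region is 1 unit. The first 4 lines are the 5′-most and 3′-most tested probes of 2 regions where these differed. The regions are chr12:110944403-110988678_F (the region of Mirg) and chr6:129151512-129208737_R. The next 6 lines are 3 pairs from opposite strands of the same interval, the last of which had opposite differences. The last 2 lines are probes of separate intervals on chromosome 8 that share most of their letters. Capitals again mark the stretch shared with a probe of another name.
A_30_P01019496, chr12:110983159-110983218, F: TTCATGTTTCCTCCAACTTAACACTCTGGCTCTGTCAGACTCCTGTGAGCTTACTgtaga
A_30_P01023076, chr12:110986389-110986448, F: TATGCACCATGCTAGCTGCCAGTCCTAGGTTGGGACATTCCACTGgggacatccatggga
A_30_P01028297, chr6:129183047-129183106, R: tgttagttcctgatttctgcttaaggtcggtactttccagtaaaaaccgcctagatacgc
A_30_P01017646, chr6:129158494-129158553, R: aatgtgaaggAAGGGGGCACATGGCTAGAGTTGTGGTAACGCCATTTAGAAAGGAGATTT
A_30_P01030335, chr3:118029813-118029872, F: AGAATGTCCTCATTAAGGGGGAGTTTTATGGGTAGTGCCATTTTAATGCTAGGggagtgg
A_30_P01023664, chr3:118029806-118029865, R: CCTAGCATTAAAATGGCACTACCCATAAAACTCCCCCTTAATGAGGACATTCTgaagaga
A_30_P01029824, chr6:12031087-12031146, F: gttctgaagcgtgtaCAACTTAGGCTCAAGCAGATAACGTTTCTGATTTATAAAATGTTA
A_30_P01031872, chr6:12031102-12031161, R: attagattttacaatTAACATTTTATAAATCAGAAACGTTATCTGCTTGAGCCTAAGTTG
A_30_P01018479, chr13:78343204-78343263, F: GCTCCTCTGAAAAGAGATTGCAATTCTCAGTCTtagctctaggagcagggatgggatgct
A_30_P01018169, chr13:78343177-78343236, R: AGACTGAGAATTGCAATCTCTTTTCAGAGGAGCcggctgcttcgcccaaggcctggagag
A_30_P01024813, chr8:73676612-73676671, R: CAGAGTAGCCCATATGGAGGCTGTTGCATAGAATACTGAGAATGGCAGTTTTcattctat
A_30_P01027590, chr8:74367037-74367096, F: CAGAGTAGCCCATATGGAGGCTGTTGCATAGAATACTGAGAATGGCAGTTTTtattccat

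The arrays bore out the fraction labels in part. Malat1, Neat1, Kcnq1ot1 and Meg3, RNAs known to stay in nuclei, were all 4 higher in nuclei, but so were 9 of 10 myofiber mRNAs. Markers of other cells also moved with the fraction: 5 of 5 endothelial, 4 of 4 Schwann cell and 4 of 4 fibroblast markers were higher in nuclei and 3 of 3 macrophage markers in cytoplasm. The summed level of the fibroblast markers, on the log2 scale, spanned 14.15 to 15.28 in nuclei and 12.84 to 14.55 in cytoplasm, and that of the endothelial markers 11.94 to 12.52 and 10.12 to 12.02. The Schwann cell markers spanned 9.34 to 10.87 and 7.91 to 9.30, and the macrophage markers 11.29 to 11.50 and 11.48 to 12.75. Of the 4 satellite cell markers 1 could be tested and did not pass, and of the 3 erythroid markers 1 was higher in cytoplasm. The part of these cells in the results below was not tested, and fewer cells of a type cannot be told apart from less RNA per cell. All EDL and soleus cytoplasm was on 1 slide and all EDL and soleus nuclei on another, so that slide and fraction cannot be told apart in these muscles, and nuclear replicates were closer to each other (median SD of the probes 0.13 to 0.17 by group) than cytoplasmic ones (0.27 to 0.40), although the labels give the nuclear arrays as biological replicates from different mice.

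Probes of the long regions leaned to the cytoplasm. With the difference taken as nuclei minus cytoplasm in log2 and averaged over the 3 muscles, 2077 of the 4082 tested probes (50.9%) were higher in cytoplasm, against 38.6% of all probes of the array, and 880 (21.6%) were higher in nuclei, against 31.2%, at an adjusted p of 0.05 from limma. The median difference was -0.43, with quartiles of -1.01 and 0.28, while over all tested probes it was -0.08. Nuclei made up 29.8% of the calls. This split depended on the scaling of the arrays: it was 22.5% with scaling to the 75th percentile and 56.1% with no scaling, under which the median of all probes moved to 0.42. Relative to the median of all probes the long regions lay lower by -0.35 with quantile normalization, -0.36 with the 75th percentile and -0.36 with no scaling. The gap was smaller with the slide as a random block (-0.27), with all spots kept (-0.23) and with normexp background correction (-0.15). In the matrix that the authors deposited, which held 276 probes of the long regions, it was 0.05 and nuclei made up 55.4% of the calls. There the gap was taken to the median of the probes that this matrix holds, not of the whole array. Over the 199 long-region probes tested in both, the median difference was 0.09 in that matrix and -0.31 in the values used above.

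Shorter lincRNA regions leaned to cytoplasm as well. In regions of 5 to 20 kb 49.9% of the tested probes were higher in cytoplasm and 20.7% in nuclei, in regions under 5 kb 56.4% and 15.5%, and among probes of no lincRNA region 33.5% and 35.6%. Within the long regions the median was -0.43 at 20 to 50 kb, -0.42 at 50 to 100 kb and -0.41 above 100 kb. Across the 4082 probes, which share sites and arrays, Spearman's rho of the difference with region length was 0.01.

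**Figure D1:**
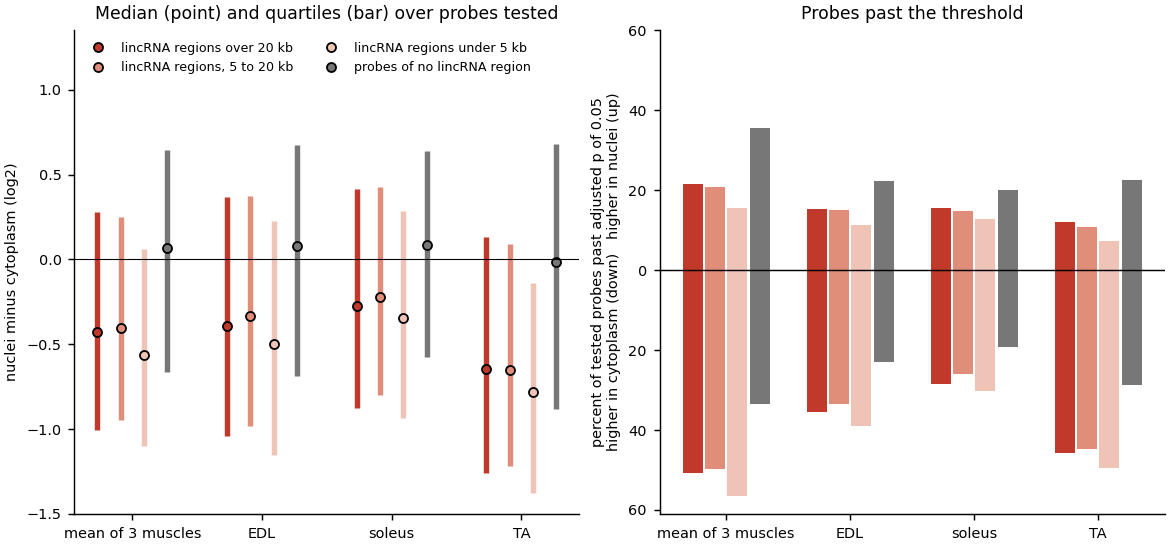
Difference between nuclei and cytoplasm (log2, left: point, median; bar, quartiles over tested probes) and share of tested probes past an adjusted p of 0.05 (percent, right: up, higher in nuclei; down, higher in cytoplasm), for 3 length classes of lincRNA regions and for probes of no lincRNA region, over the 3 muscles and in each. The 3 lincRNA classes lie below the other probes in every muscle, and the long regions reach a median of -0.64 in TA.

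With quantile normalization cytoplasm led in each muscle, with unequal counts. In EDL 1577 of 4433 tested probes were higher in cytoplasm, 35.6% against 26.5% of all probes, and 678 in nuclei, 15.3% against 20%. In soleus 1266 of 4425 were higher in cytoplasm, 28.6% against 21.7%, and 684 in nuclei, 15.5% against 18.7%. In TA 2009 of 4402 were higher in cytoplasm, 45.6% against 33.5%, and 535 in nuclei, 12.2% against 19.2%. The medians were -0.39, -0.27 and -0.64. Nuclei made up 30.1%, 35.1% and 21.0% of the calls in EDL, soleus and TA, and with no scaling 55.7%, 89.8% and 25.7%, so that in EDL and soleus the majority changed sides. It also changed sides in soleus with the slide as a random block (58.1%), and in EDL (55.1%) and soleus (68.4%) in the deposited matrix. With scaling to the 75th percentile the shares were 20.6%, 23.2% and 15.7%. The medians relative to all probes were -0.35, -0.26 and -0.42 with quantile normalization and -0.36, -0.26 and -0.41 with no scaling.

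Nuclei and cytoplasm of TA could also be compared within a scan day and within a slide. Of 2507 TA calls of long regions that could be tested on the arrays of the shared scan day, 2219 were called again in the same direction and 0 changed sign. These arrays are the ones that made the calls, less TA cytoplasm 1, so that agreement in sign is largely built in. On them nuclei made up 26.6% of the TA calls, against 21.0% on all arrays. The median relative to all probes was -0.32, against -0.42. On the shared slide 2105 of 2539 were called again and 1 changed sign, but that slide holds 1 TA cytoplasm array, which was assumed to vary like the arrays of the other groups. In 308 probes (7.55%, against 10.6% of all probes) the call was nuclei in all 3 muscles and in 1003 (24.6%, against 17.6%) cytoplasm, while 31 (0.759%, against 0.602%) were called in opposite directions in 2 muscles. Every nuclear array lay above every cytoplasmic array of the same muscle, in all 3, in 394 probes (9.65%, against 14.2% of all probes), and below in 1158 (28.4%, against 20.6%).

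The leading probes were taken from those well above background on at least 1 array of each of the 6 groups and with no overlap of the fractions in any muscle, 1 for each region. The probe with the largest nuclear excess was A_30_P01033525 at the 3′ end of chr6:31115515-31168433_R. In EDL its normalized log2 intensity was 4.69, 4.11 and 4.43 on the cytoplasm arrays and 8.24, 8.42 and 8.30 on the nuclei arrays. In soleus the values were 3.95, 5.17 and 3.49 against 8.29, 8.19 and 8.25, and in TA 4.00, 4.66 and 4.00 against 7.73, 7.67 and 7.74. All 9 nuclei arrays lay above all 9 cytoplasm arrays. The difference over the 3 muscles was 3.82 ± 0.19 (SE; limma, adjusted p = 4.05e-10), with 2 of 3 EDL and 1 of 3 soleus and TA cytoplasm arrays well above background. The probe shares 56 of its bases, printed above in capitals, with the probe A_55_P2033557 of the transcript AB041803, which differed by 3.99, so that the pair is 1 measurement of 1 site and not 2.

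The second in this order, A_30_P01023865 (3.04 ± 0.16, adjusted p = 1.11e-09), lies in chr6:31017987-31174287_F, on the other strand of the same locus. It read 4.38, 5.47 and 4.92 in EDL cytoplasm and 7.94, 8.13 and 8.01 in EDL nuclei. In soleus it read 4.77, 5.03 and 4.39 against 7.88, 7.8 and 7.88, and in TA 4.59, 3.79 and 3.63 against 6.85, 7.12 and 6.70, so that the fractions did not overlap in any muscle. This locus, 6 overlapping regions between 31017987 and 31293337 on chromosome 6, was not uniform: 15 of its 23 tested probes were higher in nuclei, 2 in cytoplasm, and the differences ran from -1.44 to 3.82.

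Behind these, 4 further regions led on the nuclear side. Without the conditions on background and overlap 17 regions held a called probe at least as far to the nuclear side as the last of these, and 9 as far to the cytoplasmic side as the last leader there. Among the nuclear ones were A_30_P01018377 (3.74) and A_30_P01018076 (3.34), which no cytoplasm array of EDL or soleus measured well above background. A_30_P01031406 in chr4:136856064-136877219_F, which holds a probe of Cdc42 (a small GTPase of cell polarity) on the opposite strand, differed by 2.90 ± 0.20, while the Cdc42 probe differed by 0.41. A_30_P01018394 in chr15:85502461-85524051_R differed by 2.87 ± 0.15, A_30_P01032973 in chr3:126989696-127112471_R by 2.53 ± 0.18, and A_30_P01023461 in chr12:110870903-110891628_F by 2.48 ± 0.17. In each of the 4 the nuclei arrays lay above the cytoplasm arrays in every muscle, with adjusted p-values of limma between 7.93e-10 and 1.21e-08. Their nuclear values ran from 6.17 to 8.47 and their cytoplasmic values from 3.39 to 5.64, with 1 to 3 of the 3 cytoplasm arrays of a muscle well above background.

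On the cytoplasmic side the first leader was A_30_P01018533 in chr5:15146475-15170100_F, which differed by -5.75 ± 0.20 (adjusted p = 1.89e-11). In EDL it read 10.36, 10.25 and 10.56 in cytoplasm and 4.54, 3.46 and 4.17 in nuclei. In soleus it read 10.89, 9.59 and 10.57 against 4.06, 4.11 and 4.65, and in TA 11.02, 10.51 and 9.98 against 5.55, 5.97 and 5.50. The fractions did not overlap in any muscle, with 2 of 3 EDL nuclei arrays and every array of the other groups well above background. All 4 probes of this region were higher in cytoplasm, between -5.95 and -4.30. The 32 capital letters of its sequence are also in the probe A_30_P01019442 of chr5:14943275-14944205_F, which differed by -5.56. This shorter lincRNA region lies inside chr5:14921737-14978834_F and chr5:14923900-15062725_F, which hold further leaders.

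The neighbours of this region behaved alike, but the first locus below holds the interval with the shared stretch and is not independent of it. In the locus at 14921737 to 15062725 on chromosome 5, 7 of 7 tested probes were higher in cytoplasm, with a median of -3.73, and in the locus at 15176325 to 15223375 all 4 of 4, with a median of -3.01. The first holds A_30_P01020068 in chr5:14921737-14978834_F (-4.80 ± 0.32) and A_30_P01022887 in chr5:14923900-15062725_F (-4.03 ± 0.22). It also holds, on the same strand, a probe of Speer8-ps1, a pseudogene of the Speer family of testis-specific genes, which differed by -3.34. Speer copies are alike in sequence, so a probe here may read more than 1 of them.

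A_30_P01021374, near the 5′ end of chr6:47692090-47713542_F, was the brightest of the leading probes. It read 12.89, 12.72 and 12.96 in EDL cytoplasm and 7.8, 7.67 and 8.1 in EDL nuclei. In soleus the values were 12.73, 12.24 and 13.11 against 7.97, 7.70 and 7.20, and in TA 13.39, 13.09 and 12.45 against 8.72, 8.58 and 8.63. Cytoplasm was higher on every array, by -4.80 ± 0.16 (adjusted p = 1.31e-11). With 60% G and C its sequence is richer in these bases than the other probes printed for this comparison (35% to 45%). The region overlaps, on the opposite strand, a probe of Rn4.5s, a small RNA made by RNA polymerase III, which differed by 0.06 and did not pass. The 3 probes of the region, each higher in cytoplasm, ran from -4.80 to -0.44.

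The last 2 of these leaders were A_30_P01018653 in chr5:26323150-26357875_F (-3.80 ± 0.25) and A_30_P01025540 in chr13:66381200-66410200_F (-3.77 ± 0.28). The first of them lies in a locus of 2 regions in which 6 of 7 tested probes were higher in cytoplasm, from -3.80 to -0.16. In both the fractions did not overlap in any muscle, and 1 or 2 of 3 nuclei arrays of EDL and soleus were well above background.

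**Figure D2:**
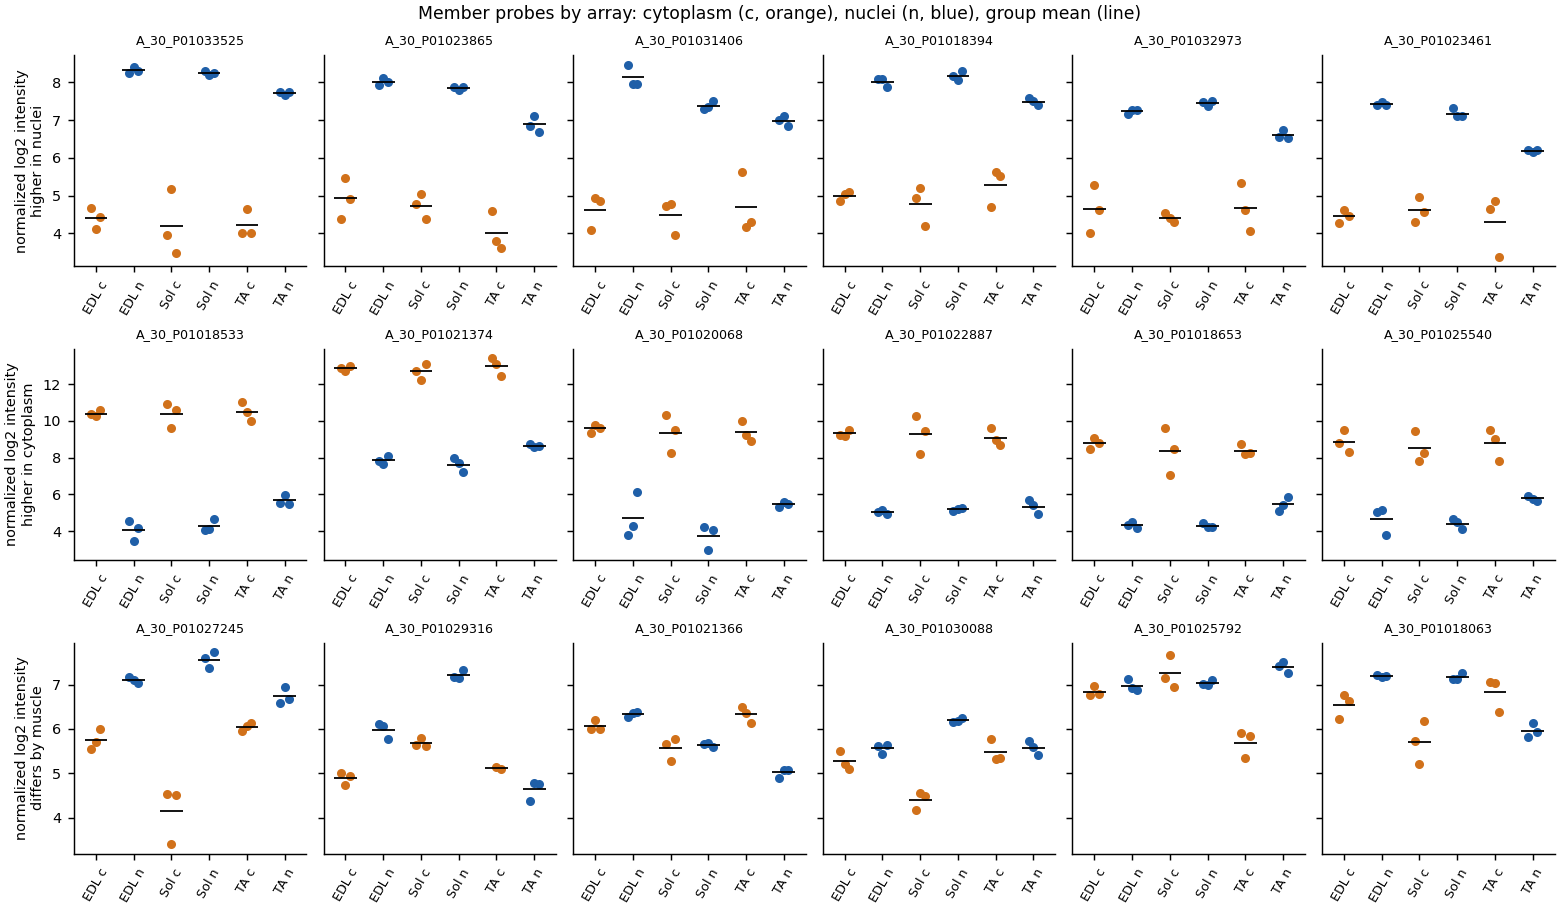
Normalized log2 intensity on each array for 18 probes of long regions (c, cytoplasm, orange; n, nuclei, blue; line, group mean of the arrays with a value). In the upper 2 rows, the leading probes over the 3 muscles, the fractions are apart in every muscle; in the lower row, the leading probes of the muscle by fraction comparison, they cross or close up in at least 1 muscle or widen in soleus.

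Where several probes of a region or locus were measured, the directions of their calls were counted. Of 993 regions with at least 2 tested probes, 62 had every probe higher in nuclei, 244 every probe higher in cytoplasm, and 210 (21.2%) had calls in both directions. Of 369 loci with at least 5 tested probes, 2 were nuclear throughout, 30 cytoplasmic throughout and 169 had both. Calls in both directions become more likely with more probes. No like count was made for shorter regions or other probes of the array, so these counts only describe the long regions.

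The 2 nuclear loci differed in level. At chr6:11996975-12037300 all 9 tested probes of the 2 strands were higher in nuclei, from 0.94 to 2.33 with a median of 2.07, and a probe of Phf14, which encodes a chromatin-binding PHD finger protein, differed by 2.34 on the forward strand. At chr17:39960567-39992817 the 9 of 9 ran from 0.69 to 2.04 with a median of 1.27. This interval holds Rn18s, the ribosomal RNA of the small subunit, whose probe differed by 0.15 and did not pass, and AK145507, whose probe differed by 1.78. The probes of the locus, A_30_P01029653 (1.57 ± 0.17) and A_30_P01028735 (2.04 ± 0.18) among them, had mean levels of 12.57 (A_30_P01019815) to 14.99 (A_30_P01029653), near the top of the scale.

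Among the cytoplasmic loci, chr3:117935228-118089771 had 5 of 5 (median -2.93), chr8:74333475-74384150 6 of 6 (-2.86), chr8:73645975-73696275 7 of 7 (-2.52) and chr14:21029450-21049451, the shortest interval kept, 10 of 10 (-1.24). At chr6:82608223-82669023 10 of 11 were higher in cytoplasm (-2.0). The chromosome 8 loci are not independent: A_30_P01024813 (-3.74) and A_30_P01027590 (-3.41) share 52 bases on the same strand, as the capitals above show. Just outside the length limit, chr10:42691088-42710968_R (19880 bases) and chr9:96947862-96967726_R (19864 bases) had no tested probe.

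The longest regions were poorly measured. The longest, chr7:39351858-46480344_R with 7128486 bases, had 1 probe, and this gave no value on any array. In chr5:99726262-100264512_R (538250 bases) A_30_P01021180 differed by -0.50 ± 0.15 (adjusted p = 0.00758), and in chr3:34003359-34537330_F (533971 bases) A_30_P01026872 by -0.52 ± 0.15 (adjusted p = 0.00661). In both regions the other tested probe, A_30_P01024347 at -0.53 ± 0.35 and A_30_P01028590 at -0.13 ± 0.14, did not pass.

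Where a probe lay along its region made little difference, and its base composition made more. Over 5 equal parts of the region from its 5′ to its 3′ end the medians were -0.37, -0.36, -0.43, -0.47 and -0.44, and the probes were not evenly placed, with 593 in the first and 1533 in the last part. By G and C share the median fell from 0.31 in the 305 probes of 35% or less to -0.58 in the 786 probes of over 50 to 55%, and stood at -0.30 in the 322 probes above 55%. The share higher in nuclei went from 44.9% to 13.1% between the same 2 classes and the share higher in cytoplasm from 24.9% to 62.3%. Probes of no lincRNA region had the same order, with medians of 0.63 and -0.22, and so had the other lincRNA regions, with 0.10 and -0.61. Over the 4082 probes Spearman's rho was -0.12 for G and C share, and over those of them with an array position inside the region it was -0.02 for position. These are descriptions over probes that share sites and arrays, and the part of base composition in the results was not tested.

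**Figure D3:**
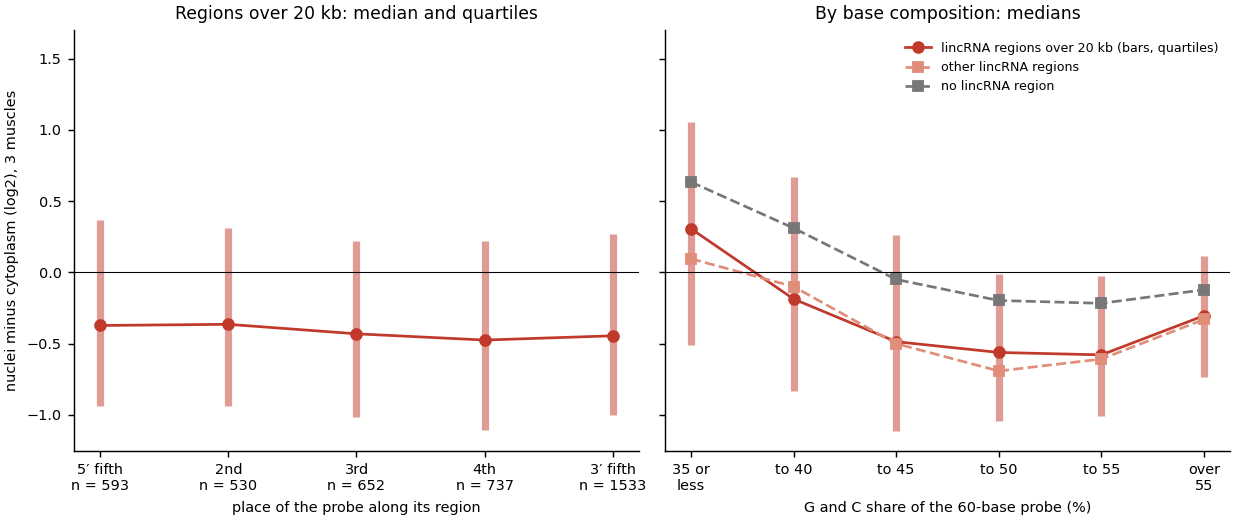
Nuclei minus cytoplasm (log2, mean of 3 muscles) by 5 equal parts of the region from its 5′ end (left; point, median; bar, quartiles; n, probes) and by G and C share of the probe (right; medians, with quartiles for the long regions). Medians stay between -0.36 and -0.47 along the region and go from 0.31 to -0.58 with rising G and C share before turning up in the last class.

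Close neighbours within a region resembled each other more than distant ones. Between neighbours up to 60 bases apart Pearson's r of the differences was 0.66 over 681 pairs, from 200 to 1000 bases it was 0.50 over 385, from 5 to 20 kb 0.41 over 259, and above 20 kb 0.43 over 158. Opposite calls made up 6.46% of the pairs in the first of these classes and 15.2% in the last. The pairs share arrays and often overlap in sequence or lie side by side.

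The 3′-most tested probe of each region was then set against the 5′-most, in the 485 long regions where they lay at least 1000 bases apart (median 13149). In 170 the 3′ probe was the more nuclear, 35.1% against 31.9% of all lincRNA regions tested this way, and in 135 the more cytoplasmic, 27.8% against 31.2%. The median of the 3′ minus 5′ difference was 0.07 and its median size 0.79, so ends differed often without a common direction.

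The pair with the smallest p was in chr12:110944403-110988678_F, the region of Mirg, a host RNA of microRNAs in the imprinted Dlk1-Dio3 cluster. Its 5′ probe A_30_P01019496 read 8.44, 8.43 and 8.38 in EDL cytoplasm and 6.50, 6.18 and 6.33 in EDL nuclei. Its 3′ probe A_30_P01023076 read 5.43, 5.2 and 5.68 in cytoplasm and 6.93, 7.06 and 7.13 in nuclei of the same muscle. The fractions were apart and in opposite order at the 2 probes. Over the 3 muscles the 5′ probe differed by -1.87 ± 0.12 and the 3′ probe by 1.15 ± 0.16, and the difference between them was 3.02 ± 0.14 (limma, adjusted p = 7.03e-11). In TA the 3′ probe itself differed by -0.13, and the difference between the 2 probes was 1.86, against 3.69 in EDL and 3.51 in soleus. The 2 probes lie 3230 bases apart, at 38785.5 and 42015.5 bases from the 5′ end of a region of 44275 bases. Each shares 45 or more bases, the capitals above, with a probe of another name. For the 3′ probe this is A_30_P01026190 on the same strand, which differed by 0.13 only. For the 5′ probe it is A_30_P01030641 on the opposite strand, which differed by -1.01.

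The other regions of that list turned mostly the same way. In chr5:137392195-137426421_F the 5′ probe A_30_P01025570 differed by -3.17 ± 0.17 and the 3′ probe A_30_P01025309 by 0.29 ± 0.10, and in chr18:38776580-38841080_R A_30_P01023255 by -3.50 ± 0.14 and A_30_P01022964 by 0.18 ± 0.12. In chr8:44232164-44267061_R A_30_P01022895 differed by -2.04 ± 0.12 while A_30_P01023449 (-0.09 ± 0.13) did not pass. The reverse order was seen in chr6:129151512-129208737_R, where A_30_P01028297 was higher in nuclei by 1.51 ± 0.14 and A_30_P01017646, 24553 bases towards the 3′ end, higher in cytoplasm by -0.80 ± 0.15. The differences between the paired probes had adjusted p-values of 1.64e-10 to 1.68e-09. At A_30_P01028297 no soleus or TA cytoplasm array was well above background, so that nuclei were at least 2.57-fold and 2.43-fold higher there.

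The widest gap within 1 region was in chr6:116092274-116144199_R, and it lay between probes of the same end. A_30_P01018076 read 2.38, 2.99 and 3.26 in EDL cytoplasm and 6.35, 6.32 and 6.39 in EDL nuclei, and A_30_P01029614, 2.58% along the region where the first is 3.48% along it, read 5.46, 5.05 and 5.66 against 3.20, 3.11 and 3.71. The order of the fractions was turned between them. Since no cytoplasm array was well above background at the first, nuclei were at least 8.63-fold higher in EDL and 9.11-fold in soleus. In TA, where 1 cytoplasm array gave no value, no bound was computed. The second differed by -1.5 ± 0.21, and in EDL, where no nuclei array was well above background, cytoplasm was at least 3.84-fold higher. Of the 10 tested probes of this region 4 were higher in nuclei and 3 in cytoplasm.

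Such gaps were found in 3 more regions. In chr3:127039311-127201919_R A_30_P01021284 differed by 2.82 ± 0.22, with nuclei at least 8.50-fold higher in soleus and 1 TA cytoplasm array without a value, and A_30_P01027584, at the same 3′ end, by -1.72 ± 0.17. In chr6:31017987-31174287_F A_30_P01018377 was at least 17.3-fold higher in EDL nuclei and at least 16.7-fold in soleus nuclei, while A_30_P01030993, midway along the region, differed by -0.62 ± 0.14. In chr1:84947500-85045150_F A_30_P01017898 differed by 1.07 ± 0.12 and A_30_P01023281 by -3.02 ± 0.22.

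**Figure D4:**
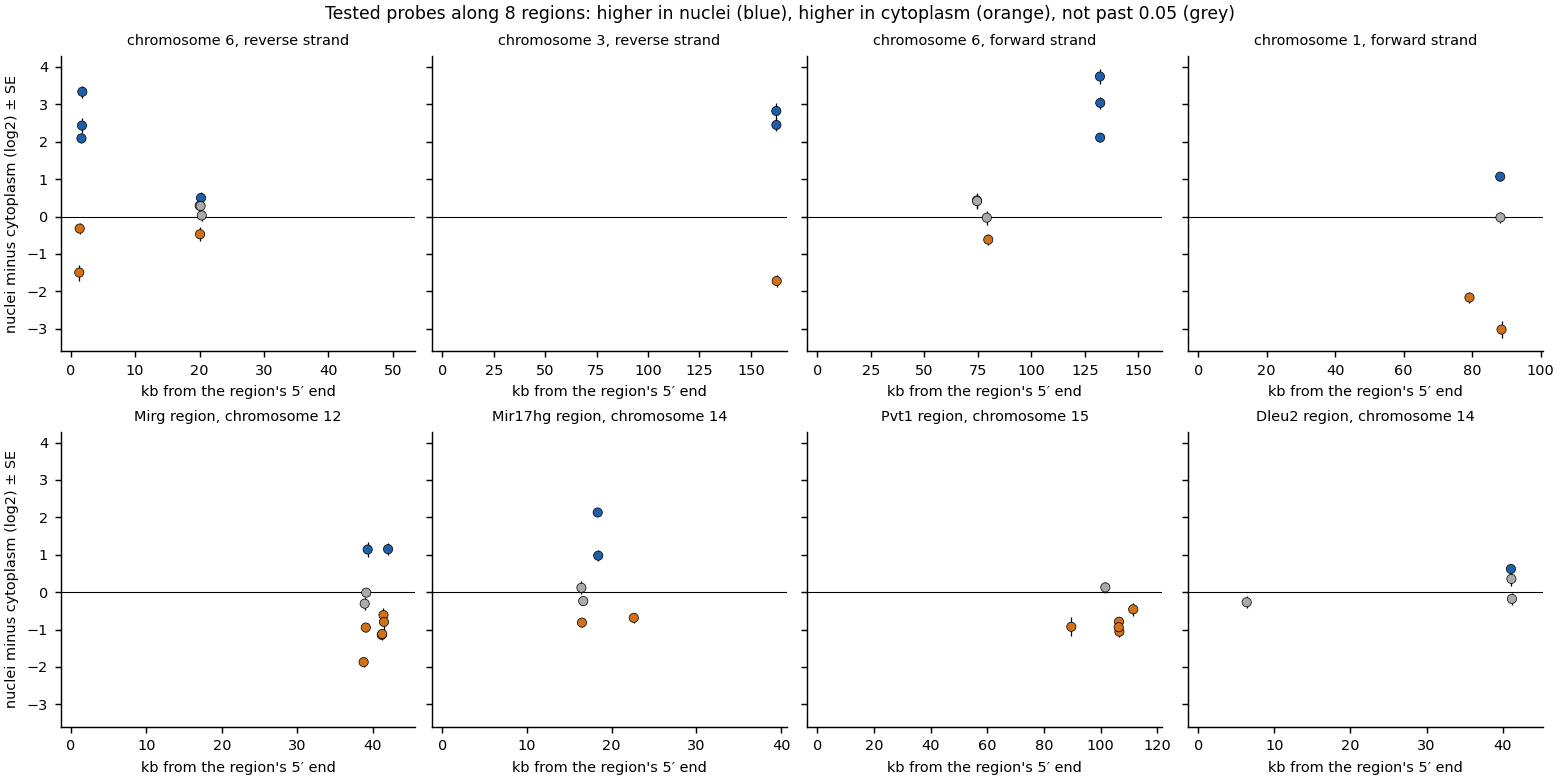
Nuclei minus cytoplasm (log2, mean of 3 muscles, bars ± SE) of the tested probes along 8 long regions, by distance from the region's 5′ end in kb (blue, higher in nuclei; orange, higher in cytoplasm; grey, not past an adjusted p of 0.05). The upper row holds the 4 regions with the widest gap between probes, up to 3.74 and down to -3.02; in the lower row the Pvt1 region has 5 of 6 tested probes higher in cytoplasm.

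Both strands of the same interval had tested probes in 425 intervals. In 361 of them the mean differences of the strands had the same sign, and Pearson's r between them was 0.67. The strands differed from each other in 207 (48.7%, against 47.2% of all lincRNA intervals), with the forward strand the more nuclear in 98 and the reverse in 109, and a median size of 0.37.

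Probes that face each other at the same bases on opposite strands gave close values. In 714 such pairs r was 0.75, and 319 pairs were higher in cytoplasm on both strands, 93 higher in nuclei on both and 26 opposite. With 30 or more bases in common r was 0.80 over 439 pairs, and with fewer 0.66 over 275. Their mean levels correlated as well, at 0.61. A_30_P01030335 and A_30_P01023664, which share 53 bases on chromosome 3, differed by -3.34 and -3.22, and A_30_P01029824 and A_30_P01031872, which share 45 on chromosome 6, by 2.20 and 2.33. On chromosome 13 A_30_P01018479 (-1.89) and A_30_P01018169 (1.26) went opposite ways although they share 33 bases. Points in these correlations share their site, base composition and arrays, and whether a probe of 1 strand also read RNA or cRNA of the other was not tested.

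**Figure D5:**
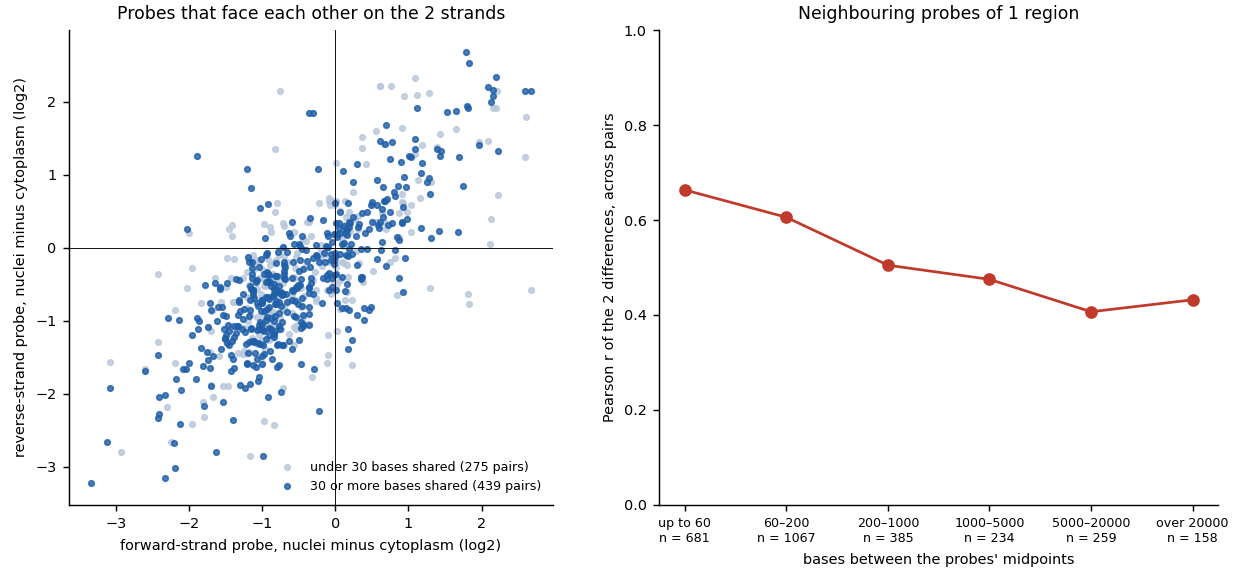
Left, nuclei minus cytoplasm (log2, mean of 3 muscles) of forward-strand against reverse-strand probes that face each other, dark for 30 or more shared bases (439 pairs) and light for fewer (275 pairs). Right, Pearson's r of the differences of neighbouring probes of 1 region by the bases between them, from 0.66 up to 60 bases to 0.41 at 5 to 20 kb and 0.43 above 20 kb.

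The clearest differences between strands were those of 4 intervals. At chr15:96091428-96115684 the reverse probe was higher in nuclei by 2.37 and the forward probe lower by -0.40. Forward minus reverse was 3.36, 2.02 and 2.87 on the EDL cytoplasm arrays and -0.74, -0.52 and -0.47 on the EDL nuclei arrays, with no overlap, and the change over the 3 muscles was -2.76 ± 0.15 (limma, adjusted p = 3.74e-09). At chr18:83087114-83122014 the forward mean was 1.28 and the reverse mean -0.66 (adjusted p = 2.05e-09). At chr4:145000941-145148666 both were below 0, -2.01 forward and -0.34 reverse, and at chr7:82902248-82955248 forward was 0.43 and reverse -0.92.

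Stretches of at least 30 bases in common with probes of other names were widespread. On the same strand 254 of the 5571 probes had one, and 70 pairs of tested probes of long regions gave an r of 0.91 and a median gap of 0.14. On the opposite strand 1398 had one, and 473 pairs gave an r of 0.80. No 2 probes were identical (5571 distinct sequences).

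Named genes of the array lay inside many regions. On the strand of the region 403 regions held a probe of one and on the opposite strand 341, while 721 held neither. Where both could be tested, the median of the region and that of the gene correlated at 0.45 over 283 pairs on the same strand and at 0.51 over 256 on the opposite one, and 191 and 169 of them had the same sign. The pairs share position and arrays, and a gene may stand in more than 1 of them.

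Of 45 lncRNA and microRNA host genes listed for muscle, imprinting and nuclear RNA, 22 had a probe with a position on the array and 6 lay in a long region on its own strand. These 6 were Mirg, Mir17hg, Dleu2, Pvt1, Airn and Nespas.

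Pvt1, a lncRNA next to Myc, was placed by its own array probes in chr15:61984389-62102500_F, where 5 of 6 tested probes were higher in cytoplasm with a median of -0.86. The largest were A_30_P01026887 (-1.06 ± 0.12) and A_30_P01030282 (-0.94 ± 0.26), while A_30_P01029551 (0.13 ± 0.15) did not pass. Of the 2 Pvt1 probes of the array, A_55_P2155654 was higher in cytoplasm (-1.33 ± 0.15) and A_55_P2051254 did not pass (0.72 ± 0.31, adjusted p = 0.0549), with a median of -0.31. Of the shorter regions inside it, chr15:62007025-62090191_F had 2 of 3 and chr15:62046023-62082530_F 1 of 2 higher in cytoplasm. The reverse strand of the interval, chr15:61984389-62102500_R, had 5 of 9 higher in cytoplasm and 1 in nuclei. On the 5′ side of the interval, the long region chr15:61870759-61938796_F had calls in both directions, from -0.43 (A_30_P01031088) to 0.66 (A_30_P01023245). Whether it belongs to Pvt1 was not tested.

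The Mirg region had 10 tested probes, 6 higher in cytoplasm and 2 in nuclei, with a median of -0.70, and the 2 Mirg probes of the array had a median of 0.04. On the same chromosome the locus at 110738120 to 110769295 had 9 of 9 tested probes higher in cytoplasm (median -1.09). Between these, the locus at 110842154 to 110891628 had 5 of 8 higher in nuclei and 1 in cytoplasm (median 1.47), and its probe A_30_P01023461 was among the leaders above.

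Mir17hg, the host of the miR-17-92 cluster, lies in chr14:115423660-115463160_F, where the 6 tested probes split into 2 higher in nuclei, 2 higher in cytoplasm and 2 that did not pass. A_30_P01024117 differed by 2.13 ± 0.10 and A_30_P01021324, directly beside it, by 0.98 ± 0.14, while A_30_P01024216 differed by -0.81 ± 0.13. Dleu2, the host of miR-15a and miR-16-1, had 1 of 4 tested probes higher in nuclei and 0 in cytoplasm in chr14:62263564-62307496_R. In chr14:62254361-62301162_R 1 of 1 was higher in nuclei, at 2.37, and chr14:62263564-62308286_R had no tested probe. The array's Dleu2 probe A_55_P2120931 went the other way in TA, at -0.55. On the TA arrays of the shared scan day it differed by -0.75 (limma, adjusted p = 0.0204).

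Airn, the imprinted antisense RNA of Igf2r, holds chr17:12990484-13018375_F, whose only probe A_30_P01023098 was higher in nuclei by 1.90 ± 0.17 (limma, adjusted p = 1.67e-07). The 3 Airn probes of the array had a median of 0.06, with 1 call each way. Nespas, the antisense RNA of the imprinted Gnas cluster, holds chr2:174088550-174109425_R, where A_30_P01032495 (-0.65 ± 0.26, adjusted p = 0.0354) was higher in cytoplasm and the other tested probes did not pass. The array's Nespas probe A_66_P113708 differed by -1.80 in TA.

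A dependence on the muscle was tested by a moderated F test of the interaction of muscle and fraction. It passed in 70 of 4082 probes, 1.71% against a like share of 1.55% of all probes of the array, while 786 lay under 0.05 before adjustment. With the replicate number as a block, set for EDL with soleus and for TA apart, 11 passed. The labels give EDL and soleus fractions of the same number the same mice. TA fractions of the same number share mice only in part, and those of replicate 3 come from different mice. Of the 70, TA had the lowest nuclei minus cytoplasm in 61 and soleus the highest in 55, and 23 kept the same sign in all 3 muscles (17 nuclei, 6 cytoplasm). Over all tested probes of the array TA also had the lowest median, -0.22 against -0.05 in EDL and -0.01 in soleus. The TA nuclei lay on another slide, scanned on another day, than the EDL and soleus nuclei. Only TA cytoplasm 1 lay on the slide of EDL and soleus cytoplasm. TA as a muscle thus cannot be told apart from slide and scan day. Between pairs of muscles 149 probes (3.65%, against 3.37% of all probes) differed for TA against soleus, 9 (0.22%, against 0.338%) for TA against EDL and 1 (0.0245%, against 0.0271%) for soleus against EDL, shares near those of the whole array. When the 3 nuclear arrays of a muscle entered as their mean, 0 passed by limma and 62 lay under 0.05 before adjustment. Without 1 array or another 10 to 205 passed.

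A_30_P01027245 in chr6:121035524-121061074_R had the smallest p (adjusted p = 0.00565). It read 5.55, 5.70 and 5.99 in EDL cytoplasm and 7.17, 7.11 and 7.03 in EDL nuclei. In soleus it read 4.54, 3.4 and 4.51 against 7.60, 7.37 and 7.74, and in TA 5.96, 6.06 and 6.14 against 6.59, 6.95 and 6.68. Nuclei were higher in each muscle, by 1.36 ± 0.25 in EDL, 3.42 ± 0.25 in soleus and 0.69 ± 0.25 in TA, and soleus cytoplasm was the group that stood low. On the TA arrays of the shared scan day the TA difference was 0.64 and did not pass (limma, adjusted p = 0.0744). On those of the shared slide it was 0.68. On the opposite strand of this interval, A_30_P01018063 was higher in nuclei of EDL (0.65) and soleus (1.47) and higher in cytoplasm of TA (-0.86; adjusted p of the interaction = 0.0119, and 0.107 with the slide as a random block).

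A_30_P01029316 in chr14:101834175-102005450_F, an interval with Tbc1d4 (a regulator of glucose uptake in muscle) on the opposite strand, also changed sides. It read 5.01, 4.73 and 4.95 in EDL cytoplasm against 6.11, 6.08 and 5.77 in EDL nuclei. In soleus it read 5.64, 5.80 and 5.61 against 7.18, 7.14 and 7.32. In TA it read 5.14 and 5.1 in cytoplasm, where the first array gave no value, against 4.37, 4.79 and 4.75 in nuclei. Nuclei were thus above cytoplasm in EDL (1.09 ± 0.17) and soleus (1.53 ± 0.17) and below it in TA (-0.49 ± 0.19), with an adjusted p of 0.00614 for the interaction. It missed the threshold with the replicate block (adjusted p = 0.0502) and with the slide block (adjusted p = 0.132). The 2 Tbc1d4 probes had a median difference of 0.97 over the 3 muscles. On the TA arrays of the shared slide the difference was -0.51 and did not pass (adjusted p = 0.0769).

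In the other 3, 1 muscle stood apart. A_30_P01021366 in chr10:94848446-94874121_F differed by 0.27 in EDL and 0.07 in soleus, neither of which passed, and by -1.31 ± 0.17 in TA (adjusted p of the interaction = 0.0092). Its interaction was lost with the replicate block (adjusted p = 0.0502) and the slide block (0.125). A_30_P01030088 in chr16:30170306-30223193_R differed by 1.79 ± 0.18 in soleus against 0.29 in EDL and 0.11 in TA (0.00995). A_30_P01025792 in chr3:48896525-48994125_R was the reverse of most, with 1.7 ± 0.20 in TA against 0.13 in EDL and -0.22 in soleus (0.0102, and 0.133 with the slide block). On the arrays of the shared slide the TA differences of the first and last were -1.33 and 2.06, and both passed.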

How the data were processed

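RNA of nuclear and cytoplasmic fractions was measured on 18 single-colour Agilent arrays, 3 for each of 6 groups that the labels give. The deposited scanner files hold, per the file headers, spot intensity after background correction by Feature Extraction 10.7.3.1 and before any scaling between arrays. A quantile-normalized matrix of intensity, also deposited by the authors, held 276 of the 5571 probes used here. Its values were turned to log2 and served as an alternative. From the scanner files, log2 intensity was set to missing for spots without positive and significant signal and for outlier spots, the 3671 control spots were removed, quantile normalization was applied across arrays, and spots of a probe were averaged. Group means were fitted to all probes with limma 3.58.1 in R 4.3.3 (12 residual degrees of freedom, prior 3.27), 2-sided, with p-values adjusted by Benjamini and Hochberg over every probe tested, pair or interval, at 0.05. Differences are nuclei minus cytoplasm. Fold bounds set the brighter group against the higher of the dim probe's own signal and the lowest signal well above background, and were not computed where the dim group lacked a value.

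The members and the lists were chosen with earlier results of these data known. Probes were named by rank: the 6 regions with the largest difference each way, with no overlap in any muscle and well above background on at least 1 array of every group; the 6 with the smallest interaction p, with the same background condition; the 5 probe pairs and 4 strand intervals with the smallest p; the 4 widest gaps within a region; the longest and the limit regions; and the regions of listed genes. Loci and single probes named as examples beside these were chosen after their values were seen. Significance Analysis of Microarrays was not run. The labels give EDL and soleus fractions of 1 replicate number the same mice, and TA in part; deviations of same-numbered arrays correlated between -0.09 and 0.13. The fit was tested on simulated data. Positions are the array's, in mm9; no genome was used here. Figures were drawn with matplotlib 3.10.9 under Python 3.11.15, numpy 2.4.6 and pandas 2.3.3, and tables were read in R with the data.table package, version 1.17.8. The number of arrays limits the precision.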

Additional observations from a re-analysis of the deposited data

Results flagged for a closer look

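In 6 probes of long regions the difference between nuclei and cytoplasm depended on the muscle by limma's test of the interaction itself. Where TA stood apart, muscle cannot be told apart from slide and scan day. A_30_P01027245 in chr6:121035524-121061074_R had the largest nuclear excess in soleus (adjusted p = 0.00565), and A_30_P01018063, on the other strand of that interval, changed sides in TA (adjusted p = 0.0119). A_30_P01029316 in chr14:101834175-102005450_F had its lowest difference in TA as well (adjusted p = 0.00614), as had A_30_P01021366 in chr10:94848446-94874121_F (adjusted p = 0.0092). A_30_P01030088 in chr16:30170306-30223193_R had its excess in soleus (adjusted p = 0.00995) and A_30_P01025792 in chr3:48896525-48994125_R in TA (adjusted p = 0.0102). When a muscle's 3 nuclear arrays entered as their mean, none of the 6 passed (adjusted p = 1.00 in each). With the slide as a random block 4 of the 6 missed the threshold, A_30_P01029316 (adjusted p = 0.132), A_30_P01021366 (0.125), A_30_P01025792 (0.133) and A_30_P01018063 (0.107), and with the replicate block A_30_P01029316 and A_30_P01021366 did (0.0502 in both).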

How the results depend on the processing

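The 12 regions leading over the 3 muscles were tested again under 27 alternatives, with 317 values that could be computed, and all 317 kept their sign and stayed past the threshold. With no scaling the calls for nuclei and for cytoplasm were 1492 and 1169 across the muscles together, 1141 and 906 for EDL alone and 2113 and 239 for soleus alone, and the interaction passed in 1868. A_30_P01030993 of chr6:31017987-31174287_F then changed sign, to 0.15 (adjusted p = 0.379), and it did not pass with the slide as a random block (-0.48, adjusted p = 0.148) or with the nuclear arrays averaged (-0.62, adjusted p = 0.0969). With the slide as a random block (correlation 0.54) the counts were 534 and 1088 across the muscles together, 255 and 389 for EDL alone, 216 and 156 for soleus alone, 4 for the interaction and 134 for strands. When a muscle's 3 nuclear arrays entered as their mean, assumed to vary like the cytoplasm, the calls for nuclei were 445 across the muscles together, those for nuclei and cytoplasm 115 and 309 for EDL alone, 78 and 112 for soleus alone and 79 and 441 for TA alone, 0 passed for the interaction, 110 and 88 pairs had the 3′ probe more nuclear or more cytoplasmic, and 86 intervals differed between strands. With pairs at least 10000 bases apart, fewer of which exist, the pair counts were 90 and 85. Spots well above background alone gave 653 higher in cytoplasm in soleus and 110 for the interaction, all spots gave 133, normexp 169 and the replicate block 11. The deposited matrix, which held 276 of the probes, gave 88 and 71 calls; over the 199 probes tested in both, it called 65 and 62 and the scanner files 44 and 91, 165 had the same sign, and the medians were 0.09 and -0.31. Leaving out 1 array gave 10 to 205 for the interaction, with 10 to 13 without a soleus nuclei array, 12 to 19 without a TA nuclei array, 26 to 30 without an EDL nuclei array, 113 without soleus cytoplasm 3, and 145, 23 and 205 without TA cytoplasm 1, 2 and 3. The replicate block ended no other comparison. The cause of these changes was not tested. Of the 6 interaction probes, A_30_P01029316 and A_30_P01021366 missed the threshold with the replicate block (adjusted p = 0.0502 in both) and A_30_P01029316, A_30_P01021366, A_30_P01025792 and A_30_P01018063 with the slide block (0.107 to 0.133). Probes at background, of which 775 were never well above it, give bounds only.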

Other observations

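A_30_P01032628 in chr2:174088550-174109425_R, the region of Nespas, read 13.01 on the EDL nuclei 1 array and 4.36 and 3.97 on the other EDL nuclei arrays, while the remaining arrays of all groups read 3.80 to 6.75. That 1 value raised the mean of EDL nuclei, and with it the difference of -0.47 ± 0.88 over the 3 muscles. In TA, where it plays no part, the difference was -2.23. On the TA arrays of the shared scan day it was -2.01 and did not pass (limma, adjusted p = 0.367).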
